A study of Homo sapiens with 3 samples.

Results

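Later-intron peaks are ribosome peaks that the deposited annotation placed in intron 2 or any higher intron of a RefSeq transcript. They were taken as every row of the 3 peak lists whose annotation begins with intron and gives an intron number of 2 or more. There were 1962 of them among 46819 peaks in all, 487 of 11219 in the vector list, 1033 of 19920 in the wild-type DDX3X list and 442 of 15680 in the G325E list. The rule used the position of a peak only.

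Ribosome profiling sequences the RNA fragments that ribosomes shield from nuclease. The 3 libraries came from HEK293T cells, a human embryonic kidney line, 24 h after transfection with empty pCDNA3.1 vector or with a FLAG-tagged DDX3X construct, wild-type or carrying the medulloblastoma substitution G325E. There was 1 library per construct and no replicate, so no comparison below has a test, and the 95% Wilson intervals cover counting error over peaks only. They take peaks as independent, though many lay close to a neighbour, and they do not measure a difference between constructs. According to the labels all 3 cultures received harringtonine at 2 µg/ml for 90 s and then cycloheximide at 100 µg/ml, whereas the methods of the study name cycloheximide alone. Exogenous DDX3X was expressed on top of the DDX3X of the cells. The labels give the cell type as neuronal. Of 13 neuronal marker genes, 3 had any peak in each list (TUBB3, NEFL and NEFM), and the other 10 had none; NEFM, a neurofilament gene, held 16 peaks in vector, 19 in wild-type DDX3X and 33 in G325E. Of 7 epithelial and mesenchymal markers, 1, 4 and 2 had any peak in these lists, and VIM, the intermediate filament gene of mesenchymal and cultured cells, held 18, 20 and 19 peaks.

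Introns are removed from the pre-mRNA in the nucleus before the mRNA reaches cytoplasmic ribosomes, so footprints of translating ribosomes are found mainly in exons. A position inside an intron of one transcript can still be an exon of another isoform, part of a transcript that retains the intron, a small RNA or pseudogene embedded in the intron, or a stretch antisense to an exon. DDX3X, a DEAD-box RNA helicase, takes part in the translation of mRNAs with structured 5′-UTRs, and GC-rich RNA tends to fold more stably.

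The sequences of representative loci show the kinds of place at which later-intron peaks lay. Each line gives 30 bases of GRCh37 at the midpoint of the locus, 5′ to 3′ on the strand of the peak, with bases inside the peak in capitals. The first set is of loci found in all 3 lists, those in HMGA1, SNRNP70 and DAZAP1 on no annotated exon and those in CKB and MAZ on exons of other transcripts of the same gene.
HMGA1 (intron 4, chr6:34212575-34212595, plus strand): gggcCAGAGCTCACACCAACAACTGcccac
SNRNP70 (intron 9, chr19:49610987-49611009, plus strand): ccgGTGTCCTGGGGTGGGGGGCGGTCacgg
DAZAP1 (intron 4, chr19:1418736-1418748, plus strand): tgggtaagGGGCTGGGCCGGGcggcctcct
CKB (intron 5, chr14:103986912-103986955, minus strand): GAGACCAGCCCTCCCGCAGGCACAATGACA
MAZ (intron 2, chr16:29819484-29819610, plus strand): ACCCCAACGTGTCCCCAGGCCGGATCACCT

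The second set is of loci that were not shared by all lists and that stand for the other kinds of place described below: a nuclear copy of mitochondrial DNA, a coding exon of another isoform, a GC-rich repeat and copies of ribosomal RNA.
PCBD2 (intron 2, chr5:134260926-134260984, minus strand): CACATCATCGAAACCGCAAACATATCATAC
RRBP1 (intron 3, chr20:17640339-17640592, minus strand): ACCCCAAACCAGGGCAAAAAGACAGAGGGA
CASZ1 (intron 3, chr1:10754729-10754779, plus strand): CGCCCCCGCCGCGCGCCCCCGCCGCGCGCG
HFM1 (intron 4, chr1:91853018-91853099, minus strand): GAGCTCAGGGAGGACAGAAACCTCCCGTGG
INTS4 (intron 21, chr11:77597658-77597700, plus strand): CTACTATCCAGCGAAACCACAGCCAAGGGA
RYR2 (intron 35, chr1:237766492-237766535, plus strand): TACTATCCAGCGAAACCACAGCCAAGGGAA

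To determine how common later-intron peaks were in each library, their share of all peaks was taken. It was 4.34% in vector (95% interval 3.98 to 4.73), 5.19% in wild-type DDX3X (4.89 to 5.50) and 2.82% in G325E (2.57 to 3.09). The difference of G325E was thus -2.37 percentage points from wild-type and -1.52 points from vector, and the 3 intervals did not overlap. First-intron peaks made up 5.55% in vector, 5.95% in wild-type DDX3X and 10.3% in G325E, so that G325E was the highest there. Of all intron peaks, 43.9% in vector and 46.6% in wild-type but 21.5% in G325E lay in a later intron.

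**Figure D1:**
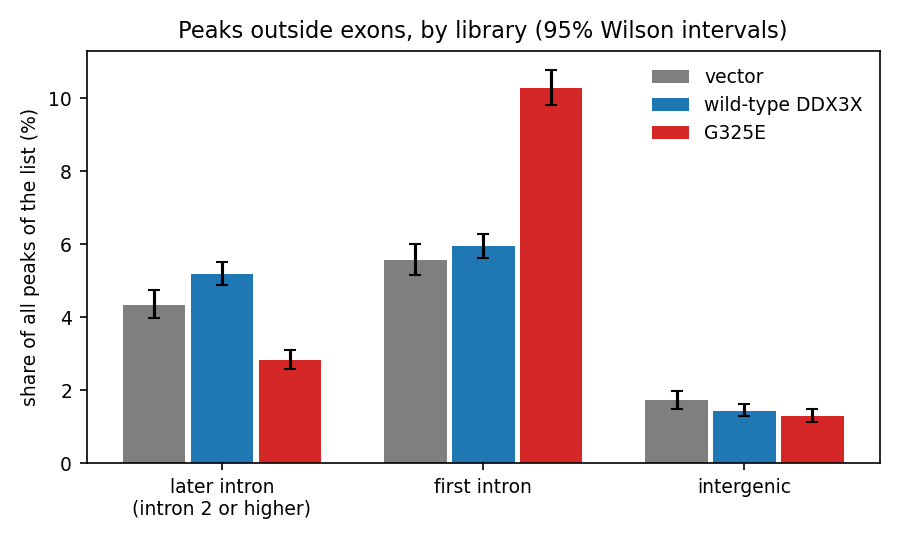
Share of all peaks of a list (%, y axis) in later introns, first introns and intergenic regions, for 1 library each of vector, wild-type DDX3X and G325E; bars start at 0 and error bars are 95% Wilson intervals. G325E is lowest for later introns (2.82%) and highest for first introns (10.3%), while intergenic shares lie between 1.29% and 1.72%.

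Peak numbers in the lists run with gaps: 1952 of 13171 numbers were missing in vector, 3099 of 23019 in wild-type DDX3X and 0 of 15680 in G325E. No vector or wild-type peak of any class carried a repeat annotation, whereas 290 G325E peaks did (1.85%). With those left out, a step added after seeing the data, the later-intron share of G325E was 2.35%. The direction of the difference turned where the length limit was not the same for each list. Keeping the 11219 longest peaks of each list, which retained wild-type peaks of 27 bp or more and G325E peaks of 22 bp or more but every vector peak, gave 1.47% in wild-type DDX3X and 1.87% in G325E against 4.34% in vector, so that G325E minus wild-type became 0.40 points and wild-type minus vector -2.87 points. With 1 length limit for all lists, peaks of 20 bp or more, the shares were 3.64% in vector, 4.38% in wild-type DDX3X and 2.51% in G325E, and G325E minus wild-type stayed negative at -1.87 points.

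The G325E peaks were richer in G and C in each of the 4 classes of region for which GC content was taken. The mean GC content of the 31 nt around the midpoint of later-intron peaks was 65.1% ± 12.7 (SD over 487 peaks) in vector, 63.4% ± 13.6 (1033 peaks) in wild-type DDX3X and 73.6% ± 12.6 (442 peaks) in G325E. First-intron peaks were richer still, at 74.1%, 73.4% and 80.7%, and exon peaks poorer, at 58.7%, 58.1% and 67.6%. Intergenic peaks had 56.2%, 56.2% and 73.2%. Bases read on the strand of the peak showed that C in later-intron peaks went from 30.7% in vector and 30.8% in wild-type to 36.3% in G325E, and T from 16.2% and 17.5% to 11.2%.

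Because GC content differed between the libraries, shares were also compared within bands of GC content. Among peaks below 60% GC, later-intron peaks made up 3.43% in vector, 4.49% in wild-type DDX3X and 2.24% in G325E. Among peaks of 80% GC or more they made up 4.71% (3.69 to 5.97), 5.25% (4.41 to 6.24) and 2.85% (2.44 to 3.32). The G325E share was the lowest in each of the 4 bands and stayed between 2.24% and 3.06%. First-intron peaks behaved differently in the same bands. Their share at 80% GC or more was 18.9% in vector, 18.9% in wild-type DDX3X and 17.9% in G325E, and it fell to 1.58%, 1.67% and 2.32% below 60% GC. For first introns the intervals of the 3 libraries overlapped in all 4 bands, whereas for later introns the interval of G325E lay below those of both others in all 4. The 80% band held 35.4% of all G325E peaks, against 11.9% in vector and 11.5% in wild-type.

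**Figure D2:**
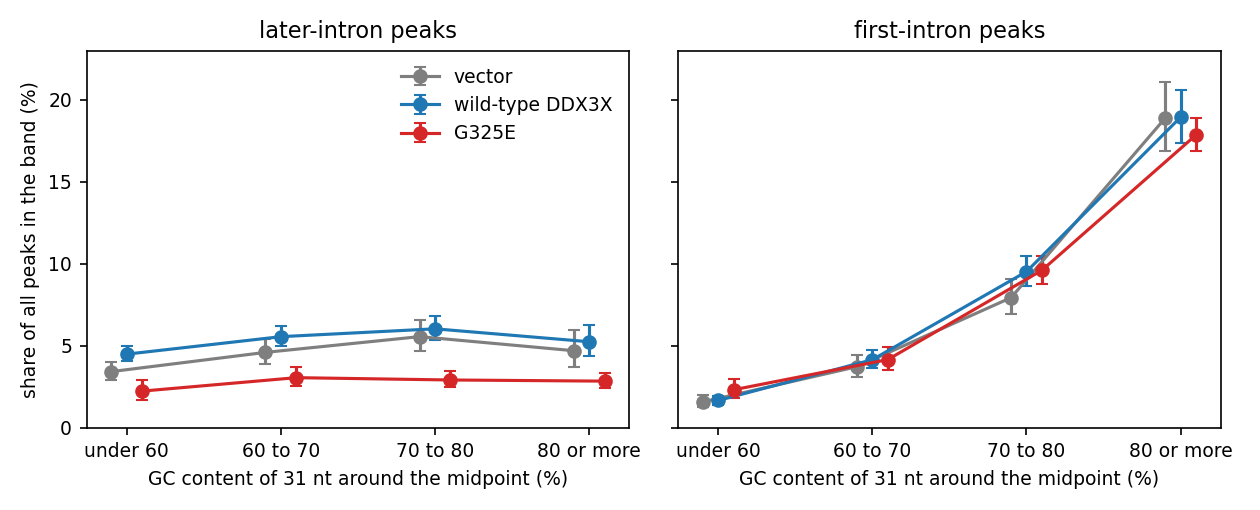
Share of all peaks in a GC band (%, y axis) that are later-intron (left) or first-intron peaks (right), against the GC content of the 31 nt around the midpoint (x axis, 4 bands), with 1 line per library and 95% Wilson intervals. The first-intron lines of the 3 libraries lie together and rise to between 17.9% and 18.9%, and the later-intron line of G325E lies below the others in all 4 bands.

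Later-intron peaks were short. Their median length of 21 bp was the same in vector and wild-type, and that of G325E was 22 bp, against 36, 35 and 38 bp for exon peaks of the same lists. The most frequent length was 21 bp with vector or wild-type and 20 bp with G325E, and 28 bp for exon peaks in all 3 lists, which is near the length of RNA that 1 ribosome shields. Peaks of 19 to 23 bp made up 40.5% of later-intron peaks in vector (36.2 to 44.9), 43.5% in wild-type DDX3X (40.5 to 46.5) and 34.2% in G325E (29.9 to 38.7), against 8.13%, 8.75% and 8.52% of exon peaks. First-intron peaks were alike in this, at 36.9%, 38.7% and 32.8%. Peaks mark stretches above a coverage cut-off, so a peak can be shorter than the reads beneath it.

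**Figure D3:**
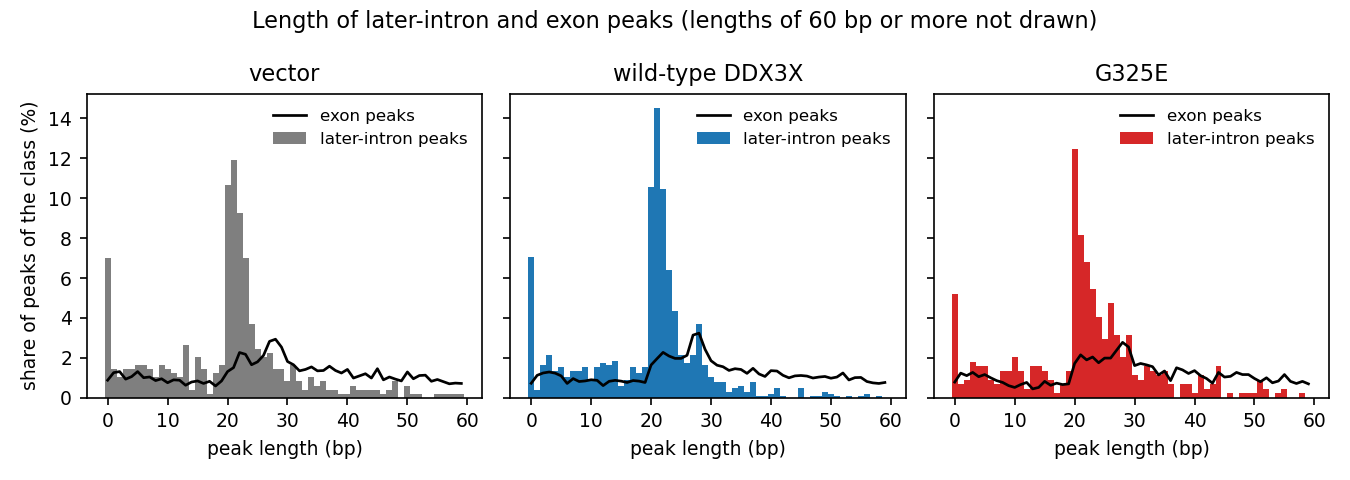
Distribution of peak length (bp, x axis) as share of the peaks of a class (%, y axis) in vector, wild-type DDX3X and G325E, with later-intron peaks as bars and exon peaks as a black line; lengths of 60 bp or more are not drawn. Later-intron peaks pile up at 20 to 23 bp in each library, where the exon line is low, and a second set of bars lies below 15 bp, with peaks of no length at 0.

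Many later-intron peaks lay 2 bases from a neighbour. Of the later-intron peaks in vector, 63 were followed on the same strand by a peak after a gap of exactly 2 bases, against 6 with a gap of 3 and 3 with a gap of 4. The numbers for a gap of 2 were 121 in wild-type DDX3X and 50 in G325E, against 16 and 5 for a gap of 3, and no gap of 0 or 1 occurred. In UCHL1, which encodes a neuron-enriched ubiquitin hydrolase, the wild-type list held 1 peak at chr4:41259377-41259398 where the G325E list held 2, at chr4:41259377-41259386 and chr4:41259389-41259398. Together these 2 span the same 22 bp. Whether such neighbours are 1 peak in the reads was not tested. Joining same-strand neighbours with 2 bases or fewer between them, a choice made after seeing the data, left 425 later-intron peaks in vector, 911 in wild-type DDX3X and 391 in G325E. Joined peaks had a median length of 23, 23 and 24 bp, and the share of 19 to 23 bp then rose to 51.5%, 55.7% and 41.9%, while peaks under 15 bp went from 26.5%, 27.2% and 23.1% to 10.8%, 12.1% and 8.95%. Under the same step the share of exon peaks of 19 to 23 bp went from 8.13% to 8.28% in vector, from 8.75% to 8.97% in wild-type DDX3X and from 8.52% to 9.15% in G325E. Exon peaks under 15 bp went from 14.6%, 14.2% and 12.8% to 11.7%, 12.05% and 9.13%. First-intron peaks moved as later-intron peaks did. Their share of 19 to 23 bp went from 36.9%, 38.7% and 32.8% to 48.4%, 51.1% and 42.1%. Those under 15 bp went from 24.2%, 25.5% and 23.2% to 7.98%, 8.03% and 5.81%. Numbers of peaks per gene below are as deposited, so a gene with such neighbours is counted higher than after joining.

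To find out what else is annotated at these positions, the peaks were laid over GENCODE release 44, which lists more transcripts than the 1 RefSeq transcript named for each peak. On the same strand, 44.1% of later-intron peaks in vector (39.8 to 48.6), 34.7% in wild-type DDX3X (31.8 to 37.6) and 36.7% in G325E (32.3 to 41.2) touched an exon of some transcript. Coding exons accounted for 55, 78 and 34 peaks, UTR exons for 29, 50 and 31, and exons of non-coding or retained-intron transcripts for 110, 209 and 91. A transcript that GENCODE calls a retained intron lay under 25.9%, 21.7% and 24.4% of the peaks. Pseudogenes and small RNA genes made up the rest of these. A further 53, 110 and 54 peaks touched an annotated exon only on the strand opposite to the peak, and most of them (45 of 49, 94 of 106 and 48 of 52 with a known host strand) were antisense to their host gene. The largest group had no annotated exon on either strand, with 219 peaks in vector (45.0%), 565 in wild-type DDX3X (54.7%) and 226 in G325E (51.1%).

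The kinds differed in length. Over the 3 lists, 47.9% of the 1010 peaks with no annotated exon and 43.9% of the 410 on non-coding or retained-intron transcripts were 19 to 23 bp long. Both of these groups had a median length of 21 bp. Among the 167 on coding exons the share was 19.2%, with a median of 24 bp, and among the 45 on pseudogenes 8.89%, with a median of 37 bp. Peaks on pseudogenes were thus close to exon peaks in length, and those on coding exons lay between these and the groups named first.

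**Figure D4:**
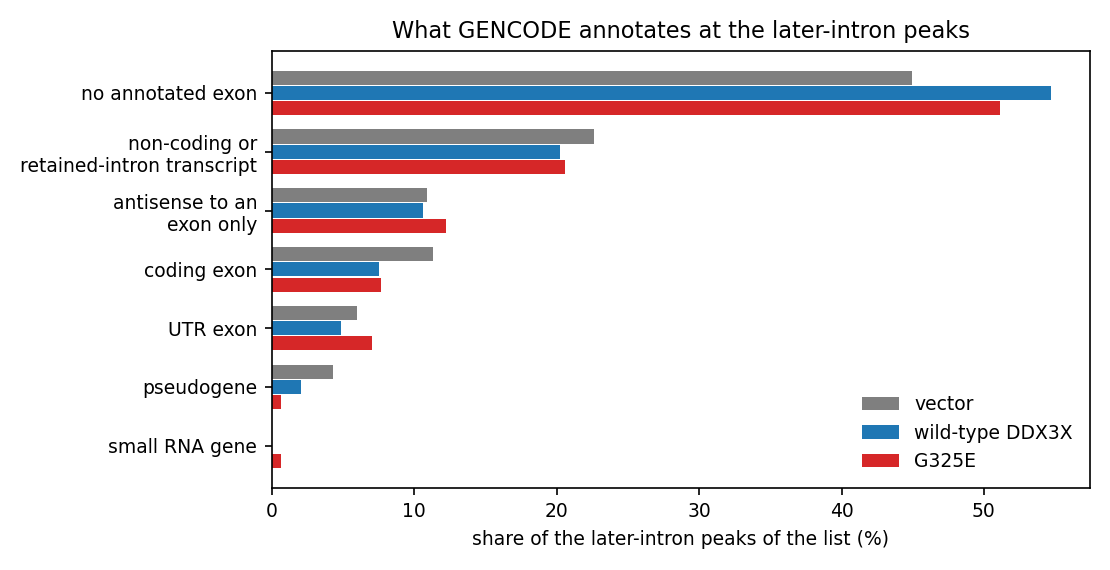
Share of the later-intron peaks of each list (%, x axis from 0) by what GENCODE annotates there (y axis), each peak counted once, same-strand features first. Peaks with no annotated exon are the largest group in every library (45.0% to 54.7%), and pseudogenes fall from 4.31% in vector to 0.68% in G325E.

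RRBP1, the ribosome-binding protein of the endoplasmic reticulum, is the clearest case of a coding exon of another isoform. It held 8 later-intron peaks in wild-type DDX3X and none in vector or G325E, where it had no peak of any class. All 8 lay in intron 3 of the 25 introns of the transcript named by the files and on a coding exon of another RRBP1 transcript. They reached 254 bp, with a median of 142.5 bp, against 21 bp for all later-intron peaks of that list. The 3 longest shared the run AACCAGGGC in the 30 bases at their midpoints, and the 25 bases at the midpoint of another peak occurred 4 times in the genome. RRBP1 is known for a tandem peptide repeat, and reads from repeated copies cannot be placed with certainty. MAZ, a zinc-finger transcription factor, showed the same kind of locus in all 3 libraries. Its peak in intron 2, shown above, was 127 bp long in vector, 118 bp in wild-type DDX3X and 119 bp in G325E and lay on a coding exon of another isoform.

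The 5 longest loci found in all 3 lists were in RPL8, YDJC, MAZ, EIF4G3 and SIGIRR. The RPL8 locus, in the gene of a large-subunit ribosomal protein, was 169 bp long (intron 2, chr8:146017245-146017413) and lay on a coding exon of another transcript. In wild-type it was matched by a peak of another class only, as no later-intron peak of that list lay there. YDJC followed at 140 bp (chr22:21983802-21983941), again with coding and retained-intron transcripts on the same strand. EIF4G3, a scaffold of the cap-binding complex, had an 88 bp locus in intron 2 (chr1:21502540-21502627) on a non-coding transcript, and SIGIRR, an inhibitor of interleukin-1 receptor signalling, had a 78 bp locus in its last intron (chr11:406266-406343). All 5 loci were on the strand of their gene. MRPL20, a mitochondrial ribosomal protein, held the third longest locus on a retained-intron transcript, after RPL8 and YDJC, at 98 bp, and it was present in wild-type only.

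Position within the intron was similar in the 3 libraries. The canonical introns that held the peaks had a median length of 806 bp in vector, 859.5 bp in wild-type DDX3X and 826 bp in G325E. The median distance from a peak to the nearest canonical exon was 80, 95 and 86.5 bp, and 54.9%, 51.5% and 54.1% of peaks lay within 100 bp of one. For first-intron peaks the intron lengths were 3011.5, 2973 and 5318.5 bp and the distances 166.5, 151 and 128 bp. The distribution over intron number did differ. Intron 2 held 26.9% of later-intron peaks in vector (23.2 to 31.01) and 25.4% in wild-type (22.8 to 28.1) but 38.5% in G325E (34.0 to 43.1). Introns 11 to 20 held 10.9%, 18.1% and 8.37%. Last introns held 19.7%, 18.9% and 19.7%. A CpG island was annotated at 21.97% and 18.1% of later-intron peaks in vector and wild-type and at 38.9% in G325E, against 79.4% to 81.3% of first-intron peaks. Chromosome 19 held 23.2%, 20.04% and 24.4% of later-intron peaks, against 11.8%, 10.95% and 11.7% of all peaks.

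About 1 in 4 later-intron peaks lay on the strand opposite to the host gene. The opposite-strand share was 25.6% in vector (122 of 477 with a known host strand, 21.9 to 29.7), 24.0% in wild-type DDX3X (245 of 1019, 21.5 to 26.8) and 29.4% in G325E (129 of 439, 25.3 to 33.8). In exon peaks it was 3.17%, 3.36% and 6.93%. First-intron peaks reached 27.9%, 28.4% and 39.3%. Opposite-strand peaks of 19 to 23 bp were 32.8%, 34.3% and 30.2% of their kind, and same-strand peaks 42.3%, 46.4% and 35.5%. The peaks on opposite strands included all 5 in DLG2, 7 of 9 in CASZ1 and 15 of 17 in PCBD2. The DLG2 and CASZ1 peaks were all repeat-annotated, as no peak of the other lists was. With repeat-annotated peaks left out, a step added after seeing the data, the same-strand share of G325E went from 70.6% to 74.6%. It was 74.4% in vector and 75.96% in wild-type DDX3X, so G325E was then level with them.

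To ask how far the libraries shared the same places, each peak was compared with the other lists by an overlap of at least 1 bp. In vector, 42.1% of later-intron peaks overlapped a wild-type peak and 18.7% a G325E peak. In wild-type, 19.1% overlapped a vector peak and 12.1% a G325E peak. In G325E, 92 of 442 (20.8%) overlapped a vector peak and 137 a wild-type peak. For exon peaks the corresponding shares were 85.5% and 47.4%, 44.4% and 31.6%, and 49.5% and 63.7%. For first-intron peaks they were 51.4% and 41.7% in vector, 26.5% and 32.9% in wild-type DDX3X, and 15.9% and 23.6% in G325E. First-intron peaks were thus shared more often than later-intron peaks in vector and wild-type, but less often in G325E. Low sharing was therefore not particular to later introns. Lists differ in size, and a longer list gives more chances of overlap.

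Merged on the same strand, the later-intron peaks formed 1650 loci. A locus counted as in a list when a peak of any class of that list overlapped it on the same strand. By this rule 1392 (84.4%) were in 1 list, 191 (11.6%) in 2 lists and 67 (4.06%) in all 3. Exon peaks could thus supply a match. Loci of other classes were not counted in this way. Loci in more lists were longer, with medians of 21, 25 and 36 bp. They lay on a same-strand exon of some transcript more often, at 31.1%, 48.2% and 68.7%, and on the strand opposite to the gene less often, at 27.5%, 25.5% and 9.09%. Longer loci have more bases with which to overlap another peak or an exon, and the part of length in these shares was not tested. The part of matches by exon peaks was not tested either.

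The later-intron peaks lay in 692 host genes, 285 in vector, 534 in wild-type DDX3X and 209 in G325E, with 85 in all 3 lists. Among genes with any peak assigned to a transcript, 13.7% held a later-intron peak in vector, 17% in wild-type DDX3X and 8.69% in G325E. A gene mostly held 1, as did 168 of 285 host genes in vector, 280 of 534 in wild-type DDX3X and 112 of 209 in G325E. Nearly all host genes had further peaks of other classes, since only 26, 32 and 23 of them had none.

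**Figure D5:**
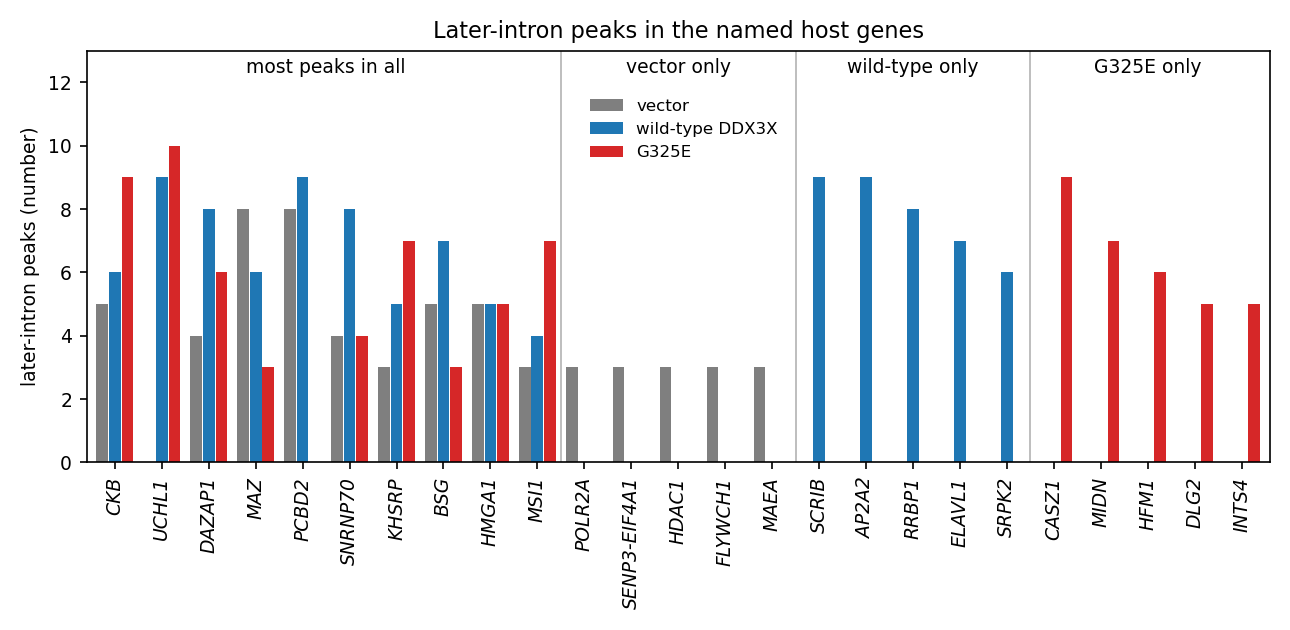
Number of later-intron peaks (y axis) in the vector, wild-type DDX3X and G325E lists for the named host genes (x axis). These are the 10 with the most in all and, per list, the 5 with the most among genes with later-intron peaks in that list only. UCHL1 and PCBD2 are each missing from 1 list, and the genes of vector alone reach 3 peaks, those of wild-type alone 9 and those of G325E alone 9. All later-intron peaks of CASZ1, HFM1, DLG2 and INTS4 were repeat-annotated. The vector and wild-type lists held no repeat-annotated peak of any class, so such peaks could be listed for G325E alone.

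CKB, the brain-type creatine kinase that buffers cellular ATP, held the most, with 5 later-intron peaks in vector, 6 in wild-type DDX3X and 9 in G325E. Of these 20 peaks, 13 lay on a retained-intron transcript of CKB and 1 on the opposite strand. UCHL1 held none in vector, 9 in wild-type DDX3X and 10 in G325E, all in intron 2, and vector had no UCHL1 peak of any class. Of the 19, 13 lay on a retained-intron transcript of UCHL1 and 6 were antisense to an annotated exon. DAZAP1, an RNA-binding splicing regulator, held 4 in vector, 8 in wild-type DDX3X and 6 in G325E, spread over 5 introns. Its locus in intron 4 shown above gave a peak of 11 bp in vector, 12 bp in wild-type DDX3X and 13 bp in G325E, each followed after 2 bases by a second.

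HMGA1, a chromatin protein of the high mobility group, held 5 in each list, and none of the 15 lay on an annotated exon. Its intron 4 peak at chr6:34212575-34212595 had the same start and end in all 3 lists. SNRNP70, the 70 kDa protein of the U1 spliceosomal particle, held 4 in vector, 8 in wild-type DDX3X and 4 in G325E. Its intron 9 peak was 23 bp in vector and 21 bp in wild-type DDX3X and G325E. KHSRP, a KH-domain regulator of splicing and mRNA decay, held 3, 5 and 7, of which 8 of 15 lay on a UTR exon and 4 on a coding exon of another isoform. BSG, the cell surface protein basigin, held 5, 7 and 3, with 13 of 15 on no annotated exon. MSI1, an RNA-binding protein of neural progenitors, held 3, 4 and 7, all in intron 2 and 5 of 14 on the opposite strand. Of the 14 MSI1 peaks, 3 were repeat-annotated, as was 1 peak each in DAZAP1, SNRNP70 and BSG. All of these were G325E peaks, since the other lists held no repeat-annotated peak, so the G325E counts of these genes are not on a par with the others. MAZ held 8 in vector, 6 in wild-type DDX3X and 3 in G325E, 11 of 17 on a coding or UTR exon.

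Some host genes held later-intron peaks in 1 list only, namely 86 of 285 in vector, 294 of 534 in wild-type DDX3X and 61 of 209 in G325E. The lists differ in size, the wild-type list being the longest, and the same share was not taken over all genes with a peak. These counts are therefore not read as a trait of later introns or of a construct. In vector the leading ones held 3 each: POLR2A, the largest subunit of RNA polymerase II, SENP3-EIF4A1, a read-through of neighbouring genes, HDAC1, a histone deacetylase, FLYWCH1 and MAEA. The median length of these peaks was 1 bp in POLR2A and 0 bp in SENP3-EIF4A1. Peaks of other classes in wild-type and G325E numbered 11 and 0 in POLR2A and 7 and 6 in SENP3-EIF4A1. They numbered 15 and 2 in HDAC1, 6 and 7 in FLYWCH1, and 7 and 2 in MAEA. In wild-type, SCRIB and AP2A2 held 9 each, RRBP1 8, ELAVL1 7 and SRPK2 6. SCRIB is a cell polarity scaffold, AP2A2 a subunit of the clathrin adaptor AP-2, ELAVL1 the RNA-binding protein HuR and SRPK2 a kinase of splicing factors. SCRIB had no peak of any class in vector and 12 in G325E, and AP2A2 had none in either. In G325E, CASZ1 held 9, MIDN 7, HFM1 6, DLG2 5 and INTS4 5. Except in MIDN, all of these peaks were repeat-annotated. The other lists held no repeat-annotated peak, so such peaks could be listed for G325E alone. CASZ1, a zinc-finger transcription factor, had 5 peaks of other classes in vector and 8 in wild-type. Its 9 later-intron peaks lay in intron 3, had a mean GC content of 92.8% and were all annotated as GC-rich or simple repeats. MIDN, the gene of midnolin, had no peak of any class in vector or wild-type.

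The G325E peaks in HFM1, DLG2 and INTS4 all lay in LSU-rRNA repeats, stretches of the genome that resemble large-subunit ribosomal RNA. In all, 26 later-intron peaks of G325E carried this annotation (5.88%, 4.05 to 8.48). They lay in HFM1 (6), DLG2 (5), INTS4 (5), SLCO5A1 (5), UNC45B (4) and RYR2 (1). The INTS4 and RYR2 sequences printed above share 29 bases, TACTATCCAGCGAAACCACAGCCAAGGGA, and the 25 bases at the midpoint of each occurred 4 times in the genome. None of the 26 overlapped a vector or wild-type peak, and none of the 81 repeat-annotated later-intron peaks of G325E (18.3%) did. Because those 2 lists held no repeat-annotated peak of any class, this outcome was nearly fixed in advance, and no conclusion is drawn from it. Of the other 361 later-intron peaks of G325E, 158 overlapped a peak of another list. In vector and wild-type, 0 of 487 and 0 of 1033 later-intron peaks were repeat-annotated, which allows shares of up to 0.616% and 0.290% if the limit is set at 3 peaks (the upper ends of the Wilson intervals were 0.783% and 0.370%). Both of those lists also had missing peak numbers, and whether repeat peaks were among the missing ones was not tested. The limits apply only if no repeat peaks were removed from these lists.

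Low-complexity sequence held more of the repeat-annotated peaks than the LSU-rRNA repeats did, with 31, of which 22 were called GC-rich, and simple repeats held 10. Others included 3 on 7SL RNA, the RNA of the signal recognition particle, and 1 on 7SK RNA, which regulates transcription elongation. GENCODE places small RNA pseudogenes at 3 G325E peaks and at none in the other lists, with 2 at RN7SL5P in PTPRD (50 bp and 32 bp) and 1 at RN7SKP71 in C12orf51 (55 bp), all opposite to the host gene. Although several ribosomal protein and other genes carry small nucleolar RNAs in their introns, no later-intron peak of any list lay on an annotated small RNA other than these 3. The annotation has a separate class for non-coding RNAs, and the rule for later-intron peaks leaves that class out. The near-absence was therefore partly set by the rule, and no conclusion on small nucleolar RNAs is drawn from it.

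Pseudogenes and mitochondrial copies lay mostly under vector and wild-type peaks. Pseudogenes lay under 23 later-intron peaks in vector (4.72%), 24 in wild-type DDX3X (2.32%) and 3 in G325E (0.68%). Ribosomal protein pseudogenes were frequent among them, including RPL23AP57 in GLDC with 1 peak in vector, 3 in wild-type DDX3X and none in G325E, RPL4P6 in MKL1 with 3, 2 and 1, and RPL18AP9 in ANO10 with 3, 1 and 1. The longest pseudogene locus, 78 bp in RABGAP1 (chr9:125791919-125791996), was present in all 3 lists and lay opposite to its host.

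PCBD2, whose protein is a cofactor of transcription factor HNF1 and an enzyme of biopterin recycling, held 8 later-intron peaks in vector, 9 in wild-type DDX3X and none in G325E. All 17 lay in intron 2 in a stretch of 90.1% to 98.0% identity to the mitochondrial genome, and 11 lay on MTND5P11, a pseudogene of a mitochondrial complex I subunit. Of the 17, 10 had a second exact copy of the 25 bases at their midpoint in the genome. Their mean GC content was 41.9%, against 65.1% for all later-intron peaks in vector. PCBD2 had no peak outside this stretch in either list. VPS13B held the other peaks of this kind, 2 in vector, 2 in wild-type DDX3X and none in G325E, at 98.5% to 98.8% identity. G325E thus had 0 of 442 such peaks, against 10 of 487 in vector (2.05%, 1.12 to 3.74) and 11 of 1033 in wild-type (1.06%). With the limit for a count of 0 set at 3 peaks, the share in G325E could be up to 0.679%. All such peaks came from PCBD2 and VPS13B, so these shares count pieces of the same stretches as separate peaks. Peaks on the mitochondrial chromosome itself made up 0.86% of all peaks in vector, 0.40% in wild-type DDX3X and 0.22% in G325E.

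Gene groups were described by how many of their genes with any peak held a later-intron peak. For 79 ribosomal protein genes the numbers were 19 of 67 in vector (28.4%), 12 of 69 in wild-type DDX3X (17.4%) and 10 of 55 in G325E (18.2%), beside 13.7%, 17% and 8.69% over all genes. RPS7 held 2, 3 and 4 later-intron peaks, RPS15 2, 1 and 4, RPS19 1, 1 and 2, RPL8 3, 2 and 3, RPL10A 1 in each list and RPL36 1 in each. These 6 were the ribosomal protein genes found in all 3 lists. For 43 splicing regulators the numbers were 8 of 27 (29.6%), 12 of 36 (33.3%) and 5 of 27 (18.5%). U2AF2, which binds the polypyrimidine tract at 3′ splice sites, held 2, 6 and 1, and PTBP1, the polypyrimidine tract binding repressor, held 2, 2 and 4. HNRNPL held 3, 2 and 2, HNRNPC 2, 2 and 1, and SF1, the branch point binding protein, 1, 2 and 3.

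For 46 translation factors the numbers were 7 of 28 in vector, 9 of 34 in wild-type DDX3X (26.5%) and 6 of 23 in G325E (26.1%). The shares over all genes, to be set beside this and the following groups, were 13.7%, 17% and 8.69% in the 3 lists. EEF2, the translocation factor of elongation, held 3, 3 and 1 in these lists, EIF4G3 3, 2 and 2, EIF3G 2, 2 and 1, and EEF1D 3, 1 and 1. For 52 small nucleolar RNA host genes the numbers were 6 of 24, 4 of 28 (14.3%) and 3 of 16 (18.8%), with EEF2 the only gene of that group in all 3 lists. For 38 chromatin regulators they were 5 of 17 (29.4%), 4 of 21 (19.05%) and 1 of 16 (6.25%), the 1 being SMARCA4, the ATPase of the BAF remodelling complex, with 1, 6 and 1 peaks. Among the cell type markers, VIM held 2, 2 and 5 and no neuronal marker held any. Genes of the ribosomal protein, splicing, translation and chromatin groups had more peaks than the typical gene, with a median of 6 peaks per ribosomal protein gene in vector against 4 over all genes, and a gene with more peaks has more chances to hold one in a later intron. Counted over peaks, the later-intron share in ribosomal protein genes was 6.32% in vector, 3.23% in wild-type DDX3X and 5.92% in G325E. Over all peaks it was 4.34%, 5.19% and 2.82%. For splicing regulators it was 5.75%, 6.49% and 5.05%, and for translation factors 6.84%, 5.07% and 4.35%. Small nucleolar RNA host genes had 8.09%, 4.32% and 4.17%, and chromatin regulators 6.03%, 4.88% and 0.74%. The part of peak number in the shares over genes was not tested.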

How the data were processed

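Ribosome profiling libraries of HEK293T cells (1 per construct) were grouped by sample title. The submitters' processing notes name cutadapt, BWA 0.5.5 and the genome build hg19 (GRCh37). Per the methods of the study, the authors found peaks as in their CLIP-seq data, in each sample where base coverage reached a cut-off; removal of short reads, removal of duplicates and review by eye are described for CLIP-seq, and whether they were applied in the same way here is not given in the sources used here. The CLIP-seq description also gives a minimum length for the peaks that were refined and merged. The lists used here hold shorter peaks, among them peaks of no length. The layout of the files is that of HOMER, whose version is not given in the sources used here. The deposited values used here are other than expression units: peak start, end and strand, the annotation text and the distance to the nearest transcription start site. They hold no heights or read counts. Read totals per library that the study gives were not used here, and no value was scaled by them.

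Peaks were laid over GRCh37, the same build, with GENCODE release 44 lifted to it. As a check, 99.7% of exon peaks in each list lay on an annotated exon. Peaks of no length (34, 73 and 23 members) were taken as 1 base. Host genes were named by the symbol in the files for 1384 of 1962 members, by a RefSeq table for 558, and by transcript for 20, and 1935 were found in GENCODE. Copies were exact matches to 25 bases at the midpoint, mitochondrial likeness was from blastn 2.17.0 (e-value 1e-10), and GC content was of 31 bases. Loci are members merged when they shared at least 1 base on the same strand. A locus was in a list when any peak of that list overlapped it on the same strand. Overlap and joining steps were tested on made-up intervals. Software was Python 3.11.15 with pandas 2.3.3, pysam 0.24.0 and matplotlib 3.10.9.

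Named genes were the 10 hosts with the most members, the 5 with the most among those of 1 list, the 5 longest loci in all 3 lists, the 3 longest per kind of feature, and members of gene lists found in all 3 lists. Other names (SLCO5A1, UNC45B, RYR2, VPS13B and the pseudogenes RPL4P6 and RPL18AP9) were chosen after their values were seen. The members and gene lists were chosen with earlier results of these data known. No test was run, since each group is 1 library. Alternatives changed the length limit, list size, intron rule, transcript, overlap, GC window and repeat peaks. Sequence on chromosome 8 is not printed.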

Additional observations from a re-analysis of the deposited data

Results flagged for a closer look

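The 26 later-intron peaks of G325E in LSU-rRNA repeats stood out because the annotation detail that shows them plays no part in choosing later-intron peaks and because the vector control held 0 of 487. They were 5.88% of the later-intron peaks of G325E and lay in 6 genes, at between 1 and 6 peaks each. No repeat-annotated peak of any class was listed for vector or wild-type, whose numbering had gaps, so a lack of such peaks in the libraries and their removal from the lists cannot be told apart.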

How the results depend on the processing

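Shares are in the order vector, wild-type, G325E. Later-intron shares were 3.64%, 4.38% and 2.51% with peaks of 20 bp or more (G325E minus wild-type -1.87 points), 3.17%, 3.87% and 1.74% from intron 3, 5.49%, 6.35% and 3.90% by canonical transcript, and 2.42%, 3.39% and 1.79% without members on same-strand exons (G325E minus wild-type -1.60, minus vector -0.64). Without peaks of no length wild-type was 4.89%. With equal numbers of longest peaks wild-type was 1.47% and G325E 1.87%; G325E minus wild-type turned to 0.40 and wild-type minus vector to -2.87, and G325E minus vector was -2.47. By its construction that choice removes short peaks from the larger lists only. Without repeat peaks G325E was 2.35%, with differences of -2.84 points from wild-type and -1.995 from vector. The same-strand share of wild-type was 79.6% without peaks of no length and 78.6% with peaks of 20 bp or more. Exon shares on either strand were 55.0%, 45.3% and 48.9%, and 57.0% in wild-type with equal numbers. Overlap with another list was 46.8%, 24.98% and 35.7%; it was 35.7%, 19.6% and 25.3% for reciprocal overlap, 41.9% and 21.97% in vector and wild-type on the same strand, 52.1% and 28.8% with peaks of 20 bp or more, 51.5% in wild-type with equal numbers and 43.8% in G325E without repeats. The repeat share of G325E was 25.2% with equal numbers. Peaks of 19 to 23 bp were 51.5%, 55.7% and 41.9% once neighbours were joined, and 48.2% and 47.4% in vector and wild-type without exon members; the joining, repeat and exon choices for length were made after seeing the data. With 1 library per construct, variation between cultures could not be measured, and the lists were not scaled to the read totals of the libraries, so that depth and construct cannot be told apart in a count of peaks. No paired analysis was possible because the labels give no replicates and no test was run.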
